A study of Mus musculus with 36 samples.

Results

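Malat1 and Neat1 are long noncoding RNAs that stay in the nucleus, and they were taken by name as 2 of the 40205 genes counted in each library. RNA was sequenced from neural stem cells (NSCs) grown as neurospheres from the dorsal telencephalon of C57BL/6J (Ai14) mouse fetuses at gestational day 12.5, and from the extracellular vesicles (EVs) these cultures released. A female and a male culture came from each of 3 pregnancies (sets 3, 4 and 5), each pooling the tissue of fetuses of 1 sex, and all were used at passages 7 to 10. Each of the 6 cultures was kept at 0, 120 or 320 mg/dL ethanol and collected on day 5, and the EVs and the cells were sequenced separately for each culture and dose. This made 36 libraries in 12 groups of 3, with pregnancy as the replicate. All groups shared the Ai14 background, a line with a fluorescent reporter that Cre switches on, all were expanded in culture, and a group held only 1 culture per pregnancy. The comparisons ask how far RNA that is held in the nucleus is found in EVs, and whether ethanol or sex went with a different level.

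The labelled cell type was checked with its markers. Summed levels of 10 neural stem cell markers were 2580.3 to 4166 counts-per-million (CPM) in cell libraries and 884 to 1307 in EV libraries. Among those with counts, single markers had means from 5.58 CPM (Emx2) to 1204 (Vim) in cells and from 3.97 to 432 in EVs. Next in cells came Slc1a3, Fabp7 and Nes at 870, 732 and 256 CPM, and the rest had at most 25.3. Of the 10, Sox2 had no count in any library, and neither had the astrocyte marker Aqp4 or the red blood cell marker Alas2. These markers could not be read, and the cause was not tested. Markers of microglia summed to at most 0.896 CPM in cells and 15.1 in EVs, those of endothelium to at most 1.82 and 13.6, and those of red blood cells to at most 0.0274 and 1.70. Neuronal markers reached 122 CPM in cells and 93.2 in EVs, astrocyte markers 232 and 129.6, and markers of the oligodendrocyte lineage 569 and 402. The medians of these sums were 19.8 and 48.6 for neurons, 69.1 and 34.2 for astrocytes, and 338 and 275 for the oligodendrocyte lineage. The part of these cells in the levels below was not tested. Libraries held 26.6 to 55.3 M counts in cells and 0.959 to 5.51 M in EVs.

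Malat1 is among the most abundant long noncoding RNAs of mammalian cells and gathers in nuclear speckles, bodies rich in splicing factors. Neat1 is the scaffold of paraspeckles, nuclear bodies that form around its long isoform and hold RNA-binding proteins such as NONO and SFPQ. Both long transcripts end without an ordinary poly(A) tail. RNase P cuts them in front of a small RNA folded like a tRNA, and a helix of U-rich and A-rich stretches then protects the new end. Neat1 also has a short isoform that ends earlier with a poly(A) tail. EVs are released from the cytoplasm and the cell surface, away from the nuclear bodies that hold both RNAs.

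On GRCm39, the assembly that the authors aligned to as mm39, the genes are neighbours on the minus strand of chromosome 19. Malat1 (ENSMUSG00000092341.7) lies at chr19:5845717-5853602 and Neat1 (ENSMUSG00000092274.6) at chr19:5874736-5897132, with 21133 bases between them. Both are annotated by GENCODE as lncRNA genes, and exons cover all 7886 bases of Malat1 and all 22397 bases of Neat1. A single-exon transcript spans each gene whole, beside 22 other annotated transcripts of Malat1 and 23 of Neat1. Counts were summed per gene, so the short and the long isoform of Neat1 cannot be told apart here.

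The 3′ ends are printed because they hold the structure that both transcripts share and that distinguishes them from polyadenylated RNAs. Each stretch has 125 bases and was read from the minus strand of GRCm39, at chr19:5845949-5846073 for Malat1 and chr19:5874676-5874800 for Neat1. Capitals mark runs of at least 5 A and the B box of a tRNA, searched as GGTTC, any base, A, any 2 bases and CC.
Malat1: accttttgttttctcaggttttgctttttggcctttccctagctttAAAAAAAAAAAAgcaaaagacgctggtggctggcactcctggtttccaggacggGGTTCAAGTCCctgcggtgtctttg
Neat1: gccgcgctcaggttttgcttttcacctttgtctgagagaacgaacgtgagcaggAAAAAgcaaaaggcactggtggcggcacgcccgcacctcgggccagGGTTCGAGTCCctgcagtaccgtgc
The B box letters were searched on the sense strand and occurred at 1 place in each gene, for Neat1 within the 100 bases past its annotated end. Of 875 lncRNA genes annotated on chromosome 19, 190 (21.7%) held these letters on their own strand. The A run was 12 bases long in Malat1 and 5 in Neat1, and the distance from it to the B box was 42 and 41 bases. The windows shared the stretches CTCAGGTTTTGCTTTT, of 16 bases, and AAAAAGCAAAAG, of 12 bases, in the same order. A GC content of 46.4% in the Malat1 window stood against 60% in that of Neat1. The small RNA cut from Malat1 has a row of its own, Mascrna, which had no count in any of the 36 libraries. Its sequence lies inside the annotated Malat1 gene, so its reads overlap Malat1 as well, and how such reads were counted is not given. The empty row therefore does not show that the small RNA was absent.

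The way overlapping genes were counted limits some of these rows. Among the 102 genes with a row in the gene lists used below, cell type markers left out, 6 had no count in any library: Xist, Kcnq1ot1, Norad, Rbm14, Rbm12 and Rpp14. Of these, 5 share 88.0% to 100% of their length with another counted gene. Kcnq1ot1 lies wholly opposite Kcnq1, and Xist is overlapped by its antisense partner Tsix over 29586 bases. Neat1 is overlapped on the other strand by Frmd8os over 1572 bases, or 7.02% of its length, so its counts can leave out or include reads from that stretch. The part of overlap in any value was not tested.

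Malat1 was 6.51-fold lower in EVs than in cells of origin, and Neat1 4.51-fold lower. In cells Malat1 ranged from 5195 to 16120 CPM with a median of 9942 over 18 libraries, and in EVs from 1072 to 2380.3 CPM with a median of 1524. The 2 locations did not overlap: the highest EV library stood below the lowest cell library. In bulk RNA of this kind, fewer cells or vesicles with a transcript and less of it in each cannot be told apart. Malat1 took 1.36% ± 0.384 (SD, n = 18) of all counts in cells and 0.121% ± 0.0375 (SD, n = 18) in EVs.

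Neat1 was far less abundant. It ranged from 26.2 to 154 CPM in cells, with a median of 42.4, and from 4.40 to 32.7 CPM in EVs, with a median of 11.3. Only the control EV library of the set 3 male culture, at 32.7 CPM, stood above the lowest cell library. These EV values rest on 4 to 108 counts per library. The lowest of them, 4 counts in the set 3 male culture at 120 mg/dL, has a 95% Poisson interval of 1.09 to 10.2 counts, which covers counting error only.

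**Figure D1:**
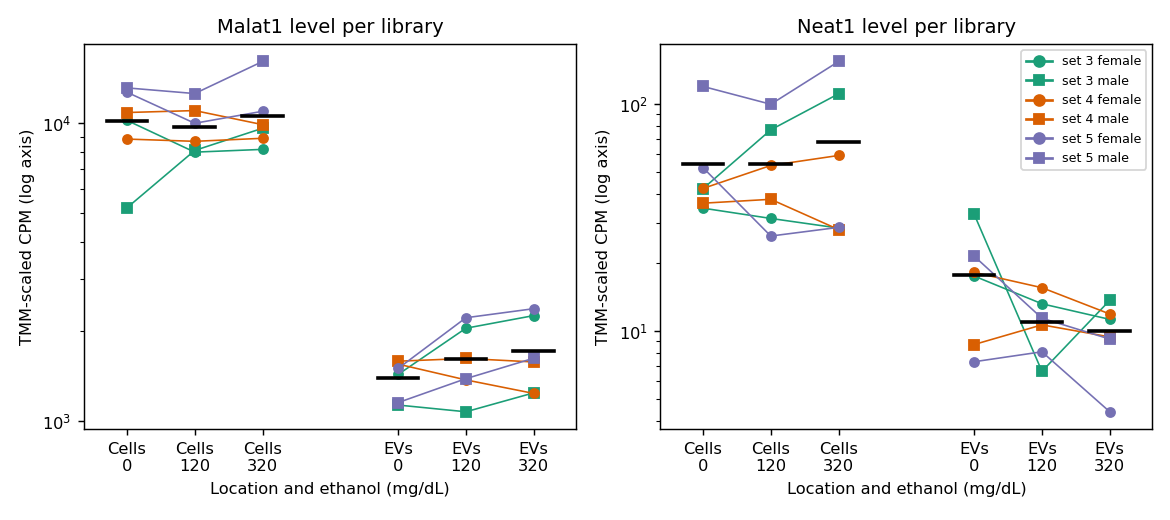
TMM-scaled CPM on a log axis of Malat1 (left) and Neat1 (right) in each of 36 libraries, by location and ethanol dose. Points of 1 culture are joined, colours mark the pregnancy set, circles are female and squares male cultures, and black bars are means of 6 libraries. Malat1 in EVs (1072 to 2380.3 CPM) lies below every cell library, and Neat1 varies more among cultures than Malat1.

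By edgeR's quasi-likelihood test over all 36 libraries, with sex and dose in the model, the log2 fold change of EVs against cells was -2.70 (SE 0.16) for Malat1, with a Benjamini-Hochberg adjusted p of 4.21e-17. For Neat1 it was -2.17 (SE 0.24), with an adjusted p of 2.34e-10. Location moved most of the transcriptome: 12302 of 15281 tested genes (80.5%) passed the threshold of 0.05, and 42.2% passed it with a lower level in EVs. Against that background the members stood out by size, since 2.15% of the tested genes had a lower fold change than Malat1 and 4.50% a lower one than Neat1. Malat1 ranked 329 from the bottom of 15281 genes and Neat1 689.

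All 6 cultures showed both differences. Averaged over doses, the log2 difference of Malat1 between the EVs and the cells of a culture was -2.69 ± 0.37 (SD, n = 6), from -3.34 to -2.22. That of Neat1 was -2.12 ± 0.69 (SD, n = 6), from -3.22 to -1.19. A two-sided exact sign-change test over the 6 cultures gave p = 0.03125 for either gene, the smallest p that 6 cultures allow. The libraries of a culture at 3 doses are not independent, and with counts summed over doses and the culture as a block the log2 fold changes were -3.00 and -2.32, with adjusted p of 9.15e-05 and 5.05e-06 by edgeR. Scaling to library totals moved the median of all genes from -0.08 to -0.88 and the members to -3.48 and -2.95, so the distance of Malat1 from the median gene was close under both scalings. It also moved the share of calls that were lower in EVs from 52.4% to 73.0%.

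Malat1 kept a high rank in both locations. By mean CPM it was gene 7 of 15281 in cells and gene 55 in EVs, and among 1190 tested lncRNAs it ranked 2 in cells and 6 in EVs. Neat1 ranked 1935 in cells and 6528 in EVs among all genes, and 23 and 114 among lncRNAs. Per kilobase of annotated exon, Malat1 had a mean level of 1289 CPM in cells and 199.9 in EVs, and Neat1 of 2.64 and 0.573. The level per kilobase of Malat1 was thus 558-fold that of Neat1 in cells and 377-fold in EVs (geometric means, n = 18 each). These lengths are those of the whole genes, and a Neat1 pool made mostly of the short isoform would have a higher level per kilobase.

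The EV share of a gene is its EV level divided by the sum of its EV and cell levels in the same culture and dose, and 50% means equal CPM. For Malat1 it ranged from 8.05% to 21.6% over 18 pairs, with a median of 12.8%. For Neat1 it ranged from 5.64% to 43.5%, with a median of 20.6%. No pair reached equal levels for either gene. At library totals the medians were 8.82% and 14%. A share of CPM compares composition and not amount, because the RNA yield per culture is not part of these values.

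By dose, the EV share of Malat1 ranged from 8.05% to 17.9% without ethanol (median 12.5%), from 9.92% to 20.4% at 120 mg/dL (median 13.2%) and from 9.14% to 21.6% at 320 mg/dL (median 13%). That of Neat1 ranged from 12.2% to 43.5% (median 24.6%), from 7.94% to 29.6% (median 22.1%) and from 5.64% to 28.4% (median 15%). The ranges overlapped between doses for both genes.

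**Figure D2:**
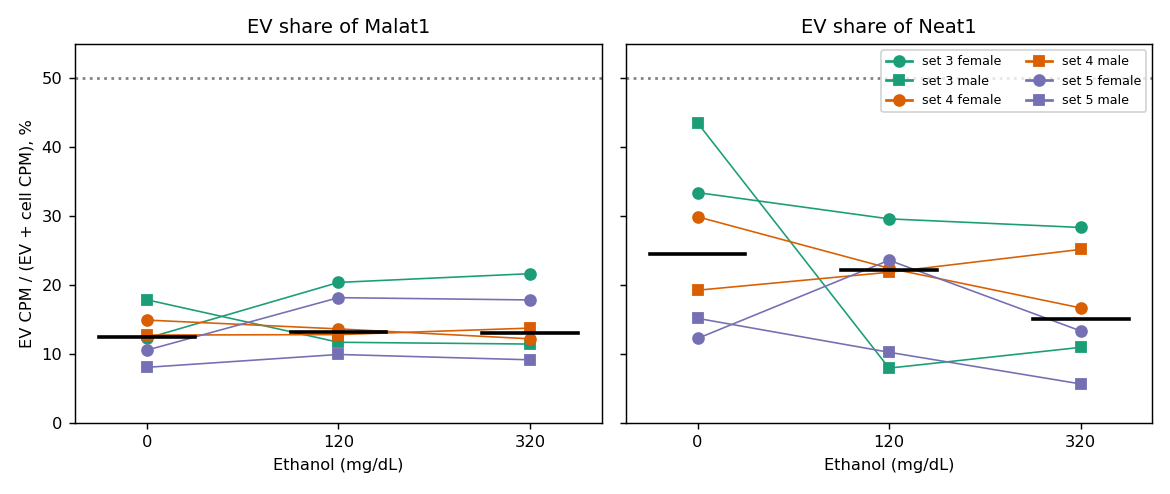
EV share in percent (EV CPM over the sum of EV and cell CPM) of Malat1 (left) and Neat1 (right) at 0, 120 and 320 mg/dL ethanol, with 1 line per culture and the median of 6 cultures as a black bar. The dotted line marks equal CPM at 50%. Malat1 medians lie between 12.5% and 13.2%, and Neat1 medians fall from 24.6% to 15% with wide overlap.

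The ratio of Malat1 to Neat1 within a library does not depend on how libraries are scaled. In cells 86.6 to 383 Malat1 counts were found per Neat1 count, with a median of 225, and in EVs 34.5 to 540.4, with a median of 154. The log2 ratio was lower in EVs than in cells in 6 of 6 cultures, by -0.61 ± 0.42 on average (SD, n = 6). The two-sided exact sign-change test gave p = 0.03125, and 0.156 after Benjamini-Hochberg adjustment over the 5 tests of this ratio, so the difference did not pass the corrected threshold. In the cultures of set 5 it was -0.13 in both sexes, against -1.05 to -0.45 in the other cultures.

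In cells the ratio differed between cultures. The male cultures of sets 3 and 5 had 86.6 to 122.6 and 104.7 to 126 Malat1 counts per Neat1 count in cells, and the female culture of set 4 had 149.9 to 208. The female cultures of sets 3 and 5 had 255 to 294 and 242 to 383, and the male culture of set 4 had 289.9 to 353. The ranges of the 2 lowest cultures and the range of the set 4 female culture lay below those of the other 3 cultures.

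**Figure D3:**
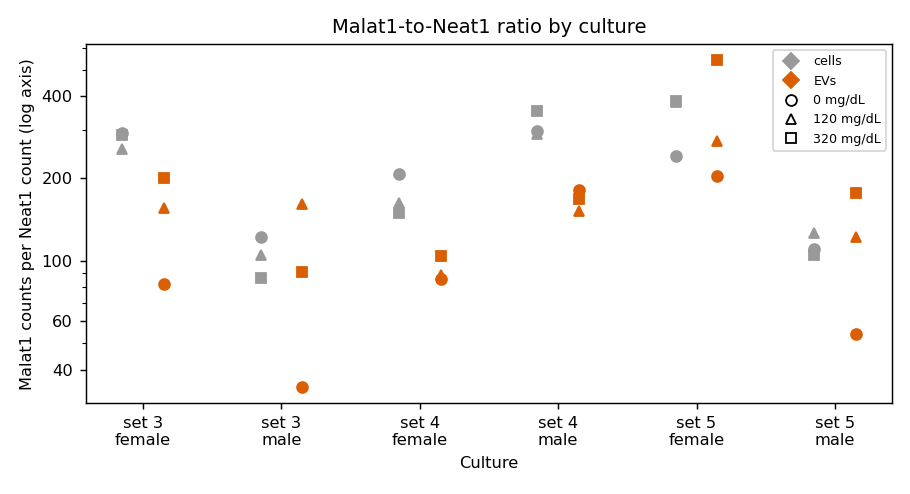
Malat1 counts per Neat1 count (log axis) in each library, by culture. Grey symbols are cells and orange symbols EVs; circles, triangles and squares are 0, 120 and 320 mg/dL ethanol. Cell values run from 86.6 in the set 3 male culture to 383 in the set 5 female culture. EV values spread more over doses than cell values in the cultures of sets 3 and 5, and less in those of set 4.

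Ethanol went with no call for either RNA in cells. Malat1 ranged in cells from 5195 to 13143 CPM without ethanol (median 10541), from 7994 to 12579 at 120 mg/dL (median 9343) and from 8166 to 16120 at 320 mg/dL (median 9752). Neat1 ranged from 34.8 to 119.6 CPM (median 42.4), from 26.2 to 99.8 (median 45.8) and from 28.0 to 154 (median 44.0). The doses overlapped over most of their ranges.

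With the culture as a block in edgeR's quasi-likelihood test, the log2 fold change of Malat1 in cells was -0.05 (SE 0.15) at 120 mg/dL and 0.08 (SE 0.15) at 320 mg/dL, with Benjamini-Hochberg adjusted p of 1.00 and 0.912. The 95% interval at 320 mg/dL ran from -0.21 to 0.37. Neat1 had -0.08 (SE 0.23) and 0.10 (SE 0.23), with adjusted p of 1.00 and 0.936 and an interval at 320 mg/dL from -0.36 to 0.55. In this comparison 7 of 17792 genes (0.0393%) passed the threshold at 320 mg/dL. At 120 mg/dL none passed, while 444 had an unadjusted p under 0.05 and DESeq2 called 4. Between 320 and 120 mg/dL the log2 differences were 0.12 for Malat1 and 0.18 for Neat1, and no gene passed in edgeR, with 633 under 0.05 unadjusted and 3 called by DESeq2.

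Cultures differed in the direction of these shifts. The set 3 male culture had 0.89 more Malat1 and 1.39 more Neat1 on the log2 scale at 320 mg/dL than in its control, while the set 5 female culture had log2 differences of -0.21 and -0.87. For each gene 3 of 6 cultures were higher and 3 lower at 320 mg/dL. Cell libraries at 320 mg/dL were shallower, with a median of 29.6 M counts against 40.3 M in controls, and the part of depth was not tested.

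In EVs Malat1 ranged from 1129 to 1585.5 CPM without ethanol (median 1465), from 1072 to 2219 at 120 mg/dL (median 1502) and from 1236 to 2380.3 at 320 mg/dL (median 1599). The highest values at both doses came from the female cultures of sets 3 and 5, at 2046 and 2219 CPM at 120 mg/dL and 2256 and 2380.3 at 320 mg/dL, against 1431 and 1499 in their controls. The other cultures stayed between 1072 and 1622 CPM at these doses. The log2 fold changes by edgeR were 0.17 (SE 0.19) and 0.27 (SE 0.19), with Benjamini-Hochberg adjusted p of 0.92 and 0.629. Without set 4 they were 0.33 and 0.47, and without set 5 0.06 and 0.14. At library totals they were -0.0901 and 0.03. The medians of all genes there were -0.26 and -0.24, against -0.011 and 0.012 under TMM. Malat1 was higher at 320 mg/dL than in the control in 4 of 6 cultures.

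Neat1 in EVs was lower with ethanol in most cultures, and the difference did not pass the threshold. It ranged from 7.32 to 32.7 CPM without ethanol (median 17.8), from 6.64 to 15.5 at 120 mg/dL (median 11.0) and from 4.40 to 13.6 at 320 mg/dL (median 10.3). The set 3 male culture had 32.7, 6.64 and 13.6 CPM at 0, 120 and 320 mg/dL, and the set 5 male culture 21.4, 11.4 and 9.21. The female cultures of sets 3 and 4 had 17.5, 13.2 and 11.2 and 18.1, 15.5 and 11.9 CPM, so that 4 cultures were lower at both doses. The set 5 female culture had 7.32, 8.10 and 4.40 CPM, and the set 4 male culture 8.72, 10.6 and 9.42, the only culture that was higher at 320 mg/dL than in its control.

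The log2 fold change of Neat1 in EVs was -0.50 (SE 0.22) at 120 mg/dL, with an unadjusted p of 0.0396 and a Benjamini-Hochberg adjusted p of 0.791 by edgeR. At 320 mg/dL it was -0.77 (SE 0.23), with a 95% interval from -1.21 to -0.32, an unadjusted p of 0.00387 and an adjusted p of 0.179. It ranked 257 by p among 11880 genes, of which 10 (0.0842%) passed the threshold at 320 mg/dL and 1 (0.00842%) at 120 mg/dL. Without the filter on low counts the log2 fold change at 320 mg/dL was -0.80 and its adjusted p 0.0134. A two-sided exact sign-change test over the 6 cultures gave p = 0.0625. Between 320 and 120 mg/dL the log2 difference was -0.27 (SE 0.24), with an adjusted p of 1.00. At 120 mg/dL the difference was -0.24 without set 3, -0.74 without set 4 and -0.75 at library totals. The median of all genes at library totals was -0.26 at that dose, against -0.011 under TMM. Leaving out set 3 or set 5 brought the difference at 320 mg/dL to -0.62 or -0.63, and leaving out set 4 to -1.04. EV libraries had median totals of 3.50 M counts in controls and 3.31 M at 320 mg/dL, with 7 to 38 Neat1 counts per library at that dose, and DESeq2 gave no adjusted p for Neat1 there.

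**Figure D4:**
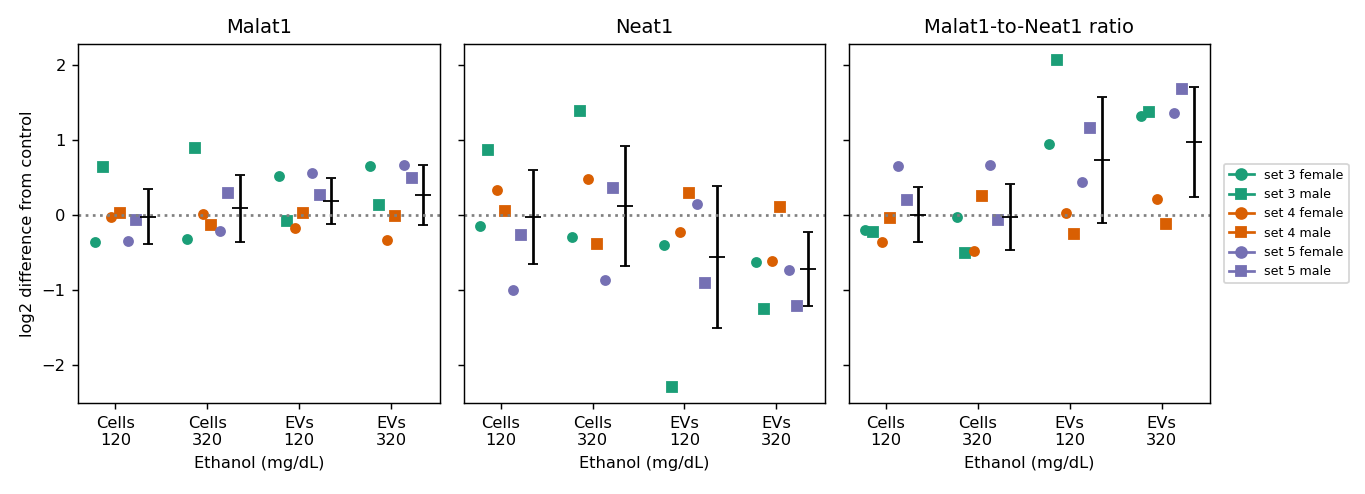
Log2 difference from the control of the same culture for Malat1, Neat1 and the Malat1-to-Neat1 ratio in cells and EVs at 120 and 320 mg/dL ethanol. Each point is 1 culture (circles female, squares male, colour by pregnancy set), and bars are mean ± SD of 6 cultures. In EVs at 320 mg/dL Neat1 is lower in 5 of 6 cultures and the ratio higher in 5 of 6.

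The Malat1-to-Neat1 ratio in EVs was higher at 320 mg/dL than in controls in 5 of 6 cultures, by 0.97 ± 0.74 on the log2 scale (SD, n = 6), and at 120 mg/dL in 5 of 6 by 0.73 ± 0.84. The two-sided exact sign-change p was 0.0625 and 0.0938, each 0.156 after adjustment over the 5 tests. With 5 in place of 0.5 added to each count, 4 of 6 cultures were higher at either dose, with an exact p of 0.125. Without set 3 the difference at 120 mg/dL was 0.34, and without set 4 it was 1.15. In cells the differences were 0.01 ± 0.37 and -0.03 ± 0.44, with exact p of 1.00 and 0.906. In the EVs of the set 3 male culture 34.5 Malat1 counts per Neat1 count were found without ethanol, 161.5 at 120 mg/dL and 90.9 at 320 mg/dL.

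Whether the EV-to-cell ratio moved with ethanol was tested as a location by dose term. For Malat1 the log2 shift was 0.21 (SE 0.33) at 120 mg/dL and 0.18 (SE 0.33) at 320 mg/dL, with 95% intervals from -0.43 to 0.85 and from -0.45 to 0.82. For Neat1 it was -0.49 (SE 0.36) and -0.92 (SE 0.37), the latter with an interval from -1.64 to -0.20, an unadjusted p of 0.023 and a Benjamini-Hochberg adjusted p of 0.669 by edgeR. Neither gene passed, nor did any of 15281 genes at either dose (0%), with 524 and 1000 genes under an unadjusted 0.05 and 2 and 60 called by DESeq2. The set 3 male culture had the largest shift of Neat1, -2.65 at 320 mg/dL, and the other cultures lay between -1.58 and 0.50. Without set 3 the shift was -0.55 at 320 mg/dL and -0.024 at 120 mg/dL, and without set 5 it was -0.82 at 120 mg/dL.

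The sexes were compared within each location, with the 3 libraries of a culture taken as independent, which makes these p-values too small. In cells Neat1 ranged from 26.2 to 59.3 CPM in females (median 34.8, n = 9) and from 28.0 to 154 in males (median 77.0, n = 9). In set 5 the female culture had 52.4, 26.2 and 28.6 CPM by rising dose and the male culture 119.6, 99.8 and 154. In set 3 they had 34.8, 31.3 and 28.4 against 42.4, 77.0 and 111. In set 4 the order was the other way, with 42.5, 53.6 and 59.3 CPM in the female culture and 36.6, 38.0 and 28.0 in the male culture, without overlap.

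The log2 difference of females from males for Neat1 in cells was -1.005 (SE 0.33), with a Benjamini-Hochberg adjusted p of 0.0806 by edgeR, where 994 of 17052 genes (5.83%) passed. DESeq2 gave an adjusted p of 0.0253. The call turned on the pregnancy: without set 4 the difference was -1.62 with an adjusted p of 0.0108, and without set 5 it was -0.41 with 0.554. With counts summed over doses, 3 cultures against 3, the adjusted p was 0.758. In EVs the difference of Neat1 was -0.15 (SE 0.27), with an adjusted p of 0.747 by edgeR.

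Malat1 in cells differed between females and males by -0.20 (SE 0.20), with a Benjamini-Hochberg adjusted p of 0.613 by edgeR. In EVs it ranged from 1236 to 2380.3 CPM in females and from 1072 to 1622 in males, and the log2 difference was 0.44 (SE 0.20) with an adjusted p of 0.132, where 1224 of 11037 genes (11.1%) passed. DESeq2 gave 0.0335. Female EVs were higher by the means of 3 doses in sets 3 and 5, 1.67-fold and 1.47-fold, and male EVs 1.15-fold in set 4. Over sums of the doses the adjusted p was 0.606.

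Taken as means over doses, the cultures had another order in EVs than in cells. Malat1 in cells ran from 7636 CPM in the set 3 male culture and 8794 and 8811 in the female cultures of sets 3 and 4 to 10593 in set 4 males, 11223 in set 5 females and 13947 in set 5 males. In EVs the set 3 male culture was again lowest, at 1147 CPM, and the female cultures of sets 3 and 5 were highest, at 1911 and 2033. Neighbours in these orders overlapped over their 3 doses, apart from the set 4 female and male cultures in cells. Neat1 in EVs was lowest in set 5 females, at 6.61 CPM, and highest in set 3 males, at 17.7 CPM with a range of 6.64 to 32.7.

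Among the lncRNAs that were tested, the members lay near the low end by fold change. Of 1188 further annotated lncRNAs tested, 754 were higher in EVs and 176 lower, with a median log2 fold change of 1.22 against -0.08 for all genes. Over all genes tested 38.4% were higher and 42.2% lower. Only 488 of the 1188 passed the count filter within EV libraries alone, against 1170 within cell libraries, so many EV values rest on few counts. The part of this filter in the counts and in the ranks below was not tested. Malat1 was the 22nd lowest of all 1190 lncRNAs by fold change and Neat1 the 38th lowest. At library totals 545 of these lncRNAs were higher and 364 lower, with a median of 0.41 against -0.88. Of all 15281 genes, 3435 were higher and 9279 lower at that scaling.

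A list of 20 other lncRNAs known from the nucleus showed no common direction. Of 15 tested, 4 were higher in EVs, 6 lower and 5 did not pass, with a median of -0.07. These values lay near those of all genes, of which 38.4% were higher and 42.2% lower, with a median of -0.08. None was as low as Malat1 or Neat1. Chaserr, which restrains its neighbour Chd2, had -1.68 (SE 0.14), and Snhg14, the long transcript of the Prader-Willi and Angelman region, -1.19 (SE 0.12). Airn, the imprinted antisense transcript at Igf2r, rose by 3.06 (SE 0.34), from 15.2 ± 10.4 CPM in cells to 140.2 ± 126 in EVs (SD, n = 18 each). Rian, of the imprinted Dlk1 region, had 2.46 (SE 0.32) on at most 15 counts per EV library. At library totals 3 were higher and 10 lower, beside 3435 and 9279 of 15281 over all genes. Airn and Rian stayed positive there, at 2.28 and 1.62, and Rmst went from 0.82 to -0.06.

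lncRNAs known from the cytoplasm changed in both directions under TMM scaling. At library totals all calls of this list were lower, and so were 73.0% of the calls over all genes. Of 10 tested, 2 were higher in EVs, 4 lower and 4 did not pass, with a median of -0.32. Epb41l4aos had -2.66 (SE 0.25) and Snhg6 -2.43 (SE 0.22), both host genes of small nucleolar RNAs, and both lay below Neat1. H19, the imprinted growth-related RNA, rose by 1.12 (SE 0.24), and Oip5os1 by 0.26 (SE 0.11). At library totals none was higher and 7 were lower, with a median of -1.07. Over all 15281 genes 3435 were higher and 9279 lower there, with a median of -0.88. H19 had 0.34 there and no longer passed, and Oip5os1 turned to -0.48. No call of this list or of the nuclear list passed the threshold for ethanol in EVs or in cells.

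mRNAs that code for proteins of these nuclear bodies were mostly lower in EVs. Over all genes 42.2% were lower. Lower levels were not particular to these mRNAs: of 9 neural stem cell markers tested, 6 were lower and 2 higher, with a median of -0.74. Among mRNAs of 25 paraspeckle proteins, 23 were tested, 22 were lower in EVs and Dazap1 did not pass (0.07), with a median of -1.39. The lowest were Hnrnph1 at -2.69 (SE 0.14) and Hnrnpk at -2.55 (SE 0.10), which code for RNA-binding proteins of the hnRNP group, and the least lowered was Smarca4 at -0.34 (SE 0.08). Nono and Sfpq, which code for the core pair of paraspeckle proteins, had -0.90 and -1.15. Of 20 mRNAs of nuclear speckle and SR proteins 17 were lower, Son was higher by 1.11 (SE 0.10), and the median was -1.74. Srsf5 and Clk4, a splicing factor and a kinase of such factors, had -2.88 (SE 0.15) and -2.86 (SE 0.18). Srrm1, which codes for a speckle protein that supports splicing, had -0.49 (SE 0.09).

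Factors that form the 3′ ends of both RNAs were measured as well. Of 14 listed, 12 were tested, 9 were lower in EVs and 1 was higher, with a median of -1.02, beside 42.2% lower and 38.4% higher over all genes. The subunit mRNAs Rpp40 and Rpp38 had -1.99 (SE 0.34) and -1.93 (SE 0.17), and Pop5 -0.49 (SE 0.14). The 1 that rose was Rpph1, the RNA component of RNase P, by 1.08 (SE 0.21), from 2994 ± 894 CPM in cells to 6458 ± 2952 in EVs (SD, n = 18 each). At library totals its log2 fold change was 0.25 and no longer passed, and 11 of the 12 were lower. Of all 15281 genes, 9279 were lower at that scaling, with a median of -0.88. Under TMM scaling Mettl16, an enzyme that binds the helix at the end of Malat1, had -0.17 and did not pass.

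**Figure D5:**
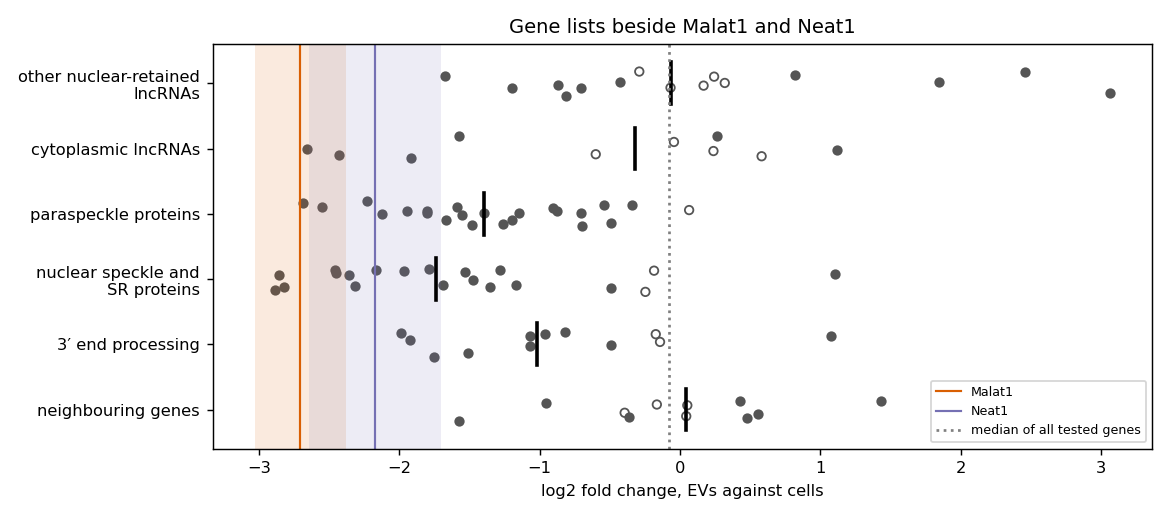
Log2 fold change of EVs against cells for each tested gene of 6 lists (filled, past the adjusted p threshold of 0.05; open, not past it), with list medians as black bars. Vertical lines mark Malat1 and Neat1 with their 95% intervals as shading, and the dotted line the median of all tested genes. Malat1 (-2.70) lies below every other nuclear-retained lncRNA tested, and 3 speckle mRNAs lie below it.

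The direction of the genes around the locus depended on the scaling, as it did over all genes. Of 13 neighbours within 100 kb that have a row, 11 were tested, 4 were higher in EVs, 3 lower and 4 did not pass. Their median was 0.05, against -0.08 for all genes. Frmd8os, the antisense RNA that overlaps Neat1, had -1.58 (SE 0.31) on at most 6 counts per EV library, Znrd2 -0.95 (SE 0.28) and Ltbp3 -0.36 (SE 0.15). Frmd8, the protein-coding gene next to it, rose by 0.43 (SE 0.16), Slc25a45 by 0.48 (SE 0.19) and Dpf2 by 0.56 (SE 0.09). At library totals 10 of 11 had a value below 0 and 7 of them passed, with a median of -0.73. Over all genes 9279 of 15281 passed with a lower level there, with a median of -0.88. Frmd8, Slc25a45 and Dpf2 turned to -0.34, -0.37 and -0.20. The tested genes Ehbp1l1, Fam89b, Tigd3 and Cdc42ep2 had 0.05, 0.05, -0.39 and -0.16, and Kcnk7 and Gm42067 had too few counts. None of the 13 passed for ethanol in cells.

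The genes whose levels followed the members most closely differed by location. Over the 18 cell libraries, Malat1 was most like Prkce (Pearson r = 0.95), Astn2 (0.95) and Cacnb4 (0.94) among 13019 genes, and Neat1 most like Lrrk2 (0.94), Pam (0.93) and Col4a5 (0.93). Over the 18 EV libraries, Malat1 was most like Ptprz1 (0.94), Mycbp2 (0.92) and Gm52861 (0.90) among 4732 genes, and Neat1 most like Jade1 (0.88), Ctbp2 (0.83) and Sbno2 (0.83). The members correlated with each other at 0.48 in cells and -0.49 in EVs. Neat1 in EVs rests on 4 to 108 counts per library, with a mean of 32.6. That is below the mean count of 50 asked of the other genes, and the part of counting error was not tested. The correlations describe 18 libraries that share cultures and scaling, and no test was made of them.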

How the data were processed

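The authors removed ribosomal RNA, prepared stranded libraries, trimmed and deduplicated reads, aligned them to mm39 (STAR) and summed them over genes (HTSeq). What they deposited are these whole-number counts, not normalized. Strand setting and overlap mode are not given in the sources used here. The tests ran in edgeR 4.0.16 under R 4.3.3 (filterByExpr with minimum count 10 and minimum total 15, TMM, quasi-likelihood F tests, Benjamini-Hochberg adjusted p under 0.05 over all genes tested), with DESeq2 1.42.0 as an alternative, and in Python 3.11.15 with scipy 1.17.1 and matplotlib 3.10.9. CPM used TMM factors over all 36 libraries, and log2 CPM a prior count of 1. The ratio of Malat1 to Neat1 added 0.5 to each count. Positions came from GENCODE on GRCm39 by symbol (79.4% of features matched), and sequences from that genome.

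EVs and cells were compared with sex and dose as terms, doses with the culture as a block, the EV-to-cell ratio with the pair and location by culture as blocks, and sexes with dose. Libraries of a culture pair by source, and as a check deviations from group means correlated over 0.1 for 18 of 18 dose pairs in cells (median 0.68), 17 of 18 in EVs (0.22), 6 of 9 female-male pairs of a pregnancy in cells, 5 of 9 in EVs, and 4 of 18 EV-cell pairs (0.08). Replicate libraries differed beyond sampling noise, with a chi-square per gene of at least 25.9. On simulated data with 200 genes changed 2-fold, edgeR recovered 80% between EVs and cells, 74% at 320 mg/dL in cells, 63.5% in EVs and 31% for the ratio, where 11.4% of calls were false. Simulated libraries were drawn independently around the fitted means. Between EVs and cells no culture term was fitted, so the likeness of libraries of a culture was not simulated there. That rate may not carry over to the real libraries.

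Named genes are the members, the 2 highest and 2 lowest of each list past the threshold between EVs and cells, any past it for ethanol, neighbours within 100 kb and the 3 genes most correlated (mean count at least 50). Xist, Kcnq1ot1, Norad, Rbm14, Rbm12, Rpp14, Rmst, Dazap1, Nono, Sfpq, Mettl16, Sox2, Vim, Nes, Emx2, Aqp4 and Alas2 were named after their values were seen. Some genes that the rule names are not reported here. Members and lists were chosen with earlier results of these data known.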

Additional observations from a re-analysis of the deposited data

Results flagged for a closer look

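The 6 groups of 6 libraries (location by dose) were each checked for a value far from the others in Malat1, Neat1 and their ratio, which is not independent of the other quantities. Of these 18 checks by Dixon's test, which flags about 1 in 20 by chance, 2 found such a value, both for Neat1 and both in cultures of set 5. Among control cell libraries the set 5 male culture had 119.6 CPM, against 34.8 to 52.4 in the other 5 cultures. It was also the highest culture at 120 and 320 mg/dL, with 99.8 and 154 CPM. Among EV libraries at 320 mg/dL the set 5 female culture had 4.40 CPM on 8 counts, against 9.21 to 13.6 in the others. The 95% Poisson interval of those 8 counts, 3.45 to 15.8, covers counting error only.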

How the results depend on the processing

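Of 252 values of the members under an alternative, 236 kept their direction and side of the threshold, 12 changed sign without passing it, 4 passed it where the reported value did not, and none was lost. The difference between EVs and cells held in 12 of 12 alternatives for either gene, from -3.48 to -2.24 for Malat1 and from -2.95 to -1.72 for Neat1. Those that passed were Neat1 in EVs at 320 mg/dL without a filter (-0.80), Neat1 between the sexes in cells by DESeq2 (-1.04) and Malat1 between the sexes in EVs by DESeq2 (0.41), with Neat1 between the sexes in cells ranging from -1.62 to -0.41 without 1 pregnancy. At library totals signs changed for Malat1 and Neat1 in cells at 320 mg/dL (-0.0407 and -0.0236), Malat1 in EVs at 120 mg/dL (-0.0901) and its EV-to-cell shift there (-0.0085). In the same order of comparisons, the medians of all genes were -0.12, -0.26 and -0.21 at library totals. Under TMM they were -0.005, -0.011 and 0.007. Without 1 pregnancy, signs changed within the ranges -0.0879 to 0.0305 (Malat1, cells, 120 mg/dL), -0.23 to 0.21 (Neat1, cells, 120 mg/dL), -0.0902 to 0.30 (Neat1, cells, 320 mg/dL), -0.49 to 0.22 (Neat1, sexes, EVs), -1.25e-05 to 0.31 (Malat1, sex difference of the response, EVs), and for the Malat1-to-Neat1 ratio in cells -0.21 to 0.11 at 120 mg/dL and -0.19 to 0.0917 at 320 mg/dL. The cause was not tested.

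The replicate block changed no call of the members. With each EV and cell pair as a block, EVs differed from cells by -2.69 and -2.07 (Malat1 and Neat1), and in control libraries with the culture as a block by -2.88 and -1.72. Without the block, Neat1 in EVs at 320 mg/dL was -0.83, and with pregnancy as a block the sexes differed by -0.87 for Neat1 in cells and 0.45 for Malat1 in EVs. The block moved counts of calls: 2953 in place of 994 between the sexes in cells, 2993 in place of 1224 in EVs, and without it 0 in place of 7 at 320 mg/dL in cells and 0 in place of 10 in EVs.

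Counts over all genes depended more on the settings. Between EVs and cells 12302 genes passed, 22029 without a filter, 23256 by DESeq2 and 2814 after thinning to the smallest total. Over the alternatives they ran from 0 to 94 in cells and 0 to 267 in EVs at 320 mg/dL, 0 to 4 and 0 to 157 at 120 mg/dL, 0 to 3 and 0 to 128 between the doses, 0 to 56 and 0 to 67 for the EV-to-cell ratio at 120 and 320 mg/dL, 7 to 2953 and 0 to 2993 between the sexes in cells and EVs, and 0 to 1 for the sex difference of the response in EVs. Neat1 in EVs is limited by its 4 to 108 counts per library.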

Other observations

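The response to 320 mg/dL ethanol was also compared between the sexes. In cells the log2 difference of the female from the male response was -0.59 (SE 0.26) for Malat1, with an unadjusted p of 0.0396 and a Benjamini-Hochberg adjusted p of 0.258 by edgeR, and -0.79 (SE 0.44) for Neat1, with an adjusted p of 0.358. Leaving out 1 pregnancy moved these to between -0.91 (without set 4) and -0.22 (without set 3) for Malat1, and between -1.51 and -0.30 for Neat1, without the same sets. By edgeR no gene of 18725 passed there, with 3368 under an unadjusted 0.05. In EVs the differences were 0.10 (SE 0.43) and 0.22 (SE 0.48).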
